A study of Mus musculus with 8 samples.

Results

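The genes described here are the heterogeneous nuclear ribonucleoproteins (hnRNPs) and the DEAD-box (DDX) and DEAH-box (DHX) helicases of N2A cells. They were chosen by symbol alone: HNRNP followed by letters or digits, DDX followed by a number on an autosome or the X chromosome, and DHX followed by a number. The rule found 69 of the 16974 genes listed, namely 20 hnRNP, 33 DDX and 16 DHX genes. All 69 were listed at the 4 time points and had a mean FPKM (fragments mapped to a gene, scaled to transcript length and library size) of at least 1. N2A (Neuro2A) cells come from a mouse neuroblastoma, and HU210 activates the cannabinoid 1 receptor. All groups were starved of serum for 16 h and then received 2 µM HU210 dissolved in DMSO, or DMSO without drug. The mRNA sequenced was taken 2 h, 4 h, 6 h or 8 h after that. There is 1 library per condition (8 in all), pooled from 2 to 3 experiments, so a difference at a single time point has no replicate check, and the number of reads behind each FPKM is unknown. In RNA from whole cultures, fewer cells of a kind and less RNA per cell cannot be told apart.

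hnRNPs coat nascent pre-mRNA in the nucleus and take part in splice site choice, mRNA export, localization, stability and translation, and many of them shuttle to the cytoplasm. In neurons, several travel with mRNAs into neurites. The DEAD-box and DEAH-box proteins use ATP to unwind RNA or to remodel RNA-protein complexes. Members of both helicase families drive steps of spliceosome assembly and release, ribosome maturation in the nucleolus, mRNA export, translation initiation and mRNA decay. Ddx58 (RIG-I) and Dhx58 (LGP2) are sensors of viral RNA.

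Short sequences mark the helicase families and a part of the hnRNPs. In an RNA recognition motif, the stretch called RNP1 contacts the RNA. The 5 windows of 30 coding bases below come from hnRNPs of the A/B and D group, the subgroup that holds the gene with the largest difference at 4 h. They were read 5′ to 3′ on the sense strand from mm9 with the GENCODE vM1 annotation, and capitals mark the 24 bases that encode the first RNP1. Hnrnpd lies at chr5:100396259-100396288 on the minus strand in coding exon 3, Hnrnpdl at chr5:100466853-100466882 on the minus strand in coding exon 2, and Hnrnpab at chr11:51418984-51419013 on the minus strand in coding exon 3. Hnrnpa2b1 lies at chr6:51416995-51417024 on the minus strand and Hnrnpa3 at chr2:75499755-75499784 on the plus strand, both in coding exon 3.
Hnrnpd: tcaAGGGGTTTTGGCTTTGTGCTATTTaaa
Hnrnpdl: tcaAGAGGATTTGGATTTGTGCTTTTCaaa
Hnrnpab: tcaAGAGGGTTTGGGTTTATTCTCTTCaaa
Hnrnpa2b1: tcaAGAGGATTTGGCTTTGTAACTTTCtca
Hnrnpa3: tccAGAGGCTTTGGTTTTGTGACCTACtct
Of the 24 bases in capitals, Hnrnpdl shared 19 with Hnrnpd, Hnrnpab and Hnrnpa2b1 shared 17 each, and Hnrnpa3 shared 16. Hnrnpa1 and Hnrnpa0 of the same group, not shown, shared 18 and 14. Outside the group, Hnrnpc shared 16 and Hnrnpr 12. A search of the translated longest transcripts for RNP1 found it in 9 of the 20 hnRNP genes, and no match says only that the searched letters are not there.

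The helicase boxes are shown for members whose levels are described below. Capitals mark the 12 bases of the box that names the family. Ddx20 lies at chr3:105486363-105486392 on the minus strand in coding exon 4, and Ddx5 at chr11:106646498-106646527 on the minus strand in coding exon 7. Dhx15 lies at chr5:52562726-52562755 on the minus strand in coding exon 4, Dhx33 at chr11:70813301-70813330 on the minus strand in coding exon 3, and Dhx36 at chr3:62297767-62297796 on the minus strand in coding exon 8.
Ddx20: tttattcttGATGAAGCAGATaagctttta
Ddx5: cttgtccttGATGAAGCTGATaggatgctt
Dhx15: ataattcttGATGAGGCCCATgaaagaaca
Dhx33: gtcattttgGACGAGGCCCATgagcggact
Dhx36: attgtacttGATGAAATTCATgaaaggaat
Translated, the box read DEAD in 25 of the 33 DDX genes and DEAH in 8 of the 16 DHX genes. In Dhx36 and Dhx9, the codon before the last encodes another residue. The remaining genes carried other variants, except Dhx32, in which no box of the searched forms was found.

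hnRNP mRNAs were the most abundant of the 3 families. The median of the genes' mean FPKM was 95.4 for hnRNP, 27.2 for DDX and 11.5 for DHX genes, against 12.7 over the 11311 genes tested. Hnrnpa2b1, which takes part in splicing and mRNA trafficking, had the highest mean (324 FPKM), followed by Hnrnph1 (251 FPKM), a binder of G-rich RNA, and Hnrnpab (240.0 FPKM). Among the helicases, the splicing cofactor Ddx5 (205 FPKM) and the export and splicing factor Ddx39b (198 FPKM) were highest. The third was Ddx1 (109.7 FPKM), with 114, 128, 97.2 and 109.6 FPKM in the DMSO libraries in order of time and 105, 106, 104 and 115 FPKM in the HU210 libraries. Dhx9 (99.6 FPKM), which is RNA helicase A, headed the DHX genes, before Dhx15 (63.8 FPKM) and the mitochondrial Dhx30 (42.5 FPKM). Dhx30 held 43.1, 48.0, 40.4 and 46.6 FPKM with DMSO and 37.2, 42.8, 40.6 and 41.5 FPKM with HU210. In both Ddx1 and Dhx30, no change with HU210 passed 1.3-fold at any time point. The lowest means were those of Ddx59 (2.16 FPKM) and Ddx58 (2.23 FPKM).

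Some FPKM are uncertain because transcripts share sequence or position. Copies described as pseudogenes were listed for 5 hnRNP genes. That of Hnrnpa2b1 had a mean of 87.8 FPKM, though it was not listed at every time point. A copy of Hnrnpa1 held 14.6 to 30.7 FPKM. The 6 copies of Hnrnpa3 summed to 111 to 134 FPKM, above the 33.8 to 64.3 FPKM of the gene itself. FPKM were corrected for reads with several matches, but how accurately this divided reads between the gene and its copies is unknown. The 2 copies of Hnrnpf summed to 84.1 to 116 FPKM. Exons of 9 members overlap those of another listed gene, with the longest overlap between Hnrnph3 and Rufy2 on opposite strands (2379 bases). Whether the counting used strand is not given in the sources used here, so reads of such pairs may not have been told apart.

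Of the markers of neuroblastoma and neurons, 8 of 10 were listed, each with a median FPKM of at least 1, and they summed to 365 to 448 FPKM per library. Markers of fibroblasts summed to 2.17 to 2.45 FPKM and those of glia to 5.68 to 6.94 FPKM, and the only immune marker listed, Cd68, had 0.219 to 0.443 FPKM. The 4 h DMSO library stood furthest from the others. Its median correlation with the other 7 libraries across genes, on log2(FPKM + 1), was 0.983, against 0.986 to 0.989 for each other library. Every difference at 4 h rests on it, so results at 4 h are also given with another reference, the mean of the 3 other DMSO libraries (2 h, 6 h and 8 h).

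At 4 h, hnRNP mRNAs were lower with HU210 than with DMSO. A change below is log2(FPKM with HU210 + 1) minus log2(FPKM with DMSO + 1), and it counts as higher or lower past 1.3-fold. Of the 20 hnRNP genes, 11 were lower and 0 were higher, against 19.9% and 8.96% of all genes tested. The median change was −0.43, against −0.08 over all genes, and 18 of 20 hnRNP genes were below 0 (90%, against 59% of all genes). Against the mean of the other 3 DMSO libraries, 2 of the 20 were lower, beside 3.39% of all genes, and the median change was −0.06. No error can be given for these differences.

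Hnrnpd (AUF1), which binds AU-rich elements in mRNAs and marks many of them for decay, had the largest difference. Its DMSO libraries held 99.9, 179, 65.9 and 74.4 FPKM in order of time. The HU210 libraries held 97.9, 59.5, 102 and 93.6 FPKM. The 2 libraries of 4 h were the highest and the lowest of the 8, while the other 6 lay between 65.9 and 102 FPKM. The change at 4 h was −1.58. Relative to the median of the other 6 libraries, the DMSO library was 0.90 higher and the HU210 library fell by 0.68 on the log2 scale. Against the other 3 DMSO libraries the change of Hnrnpd was −0.40, still past 1.3-fold.

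**Figure D1:**
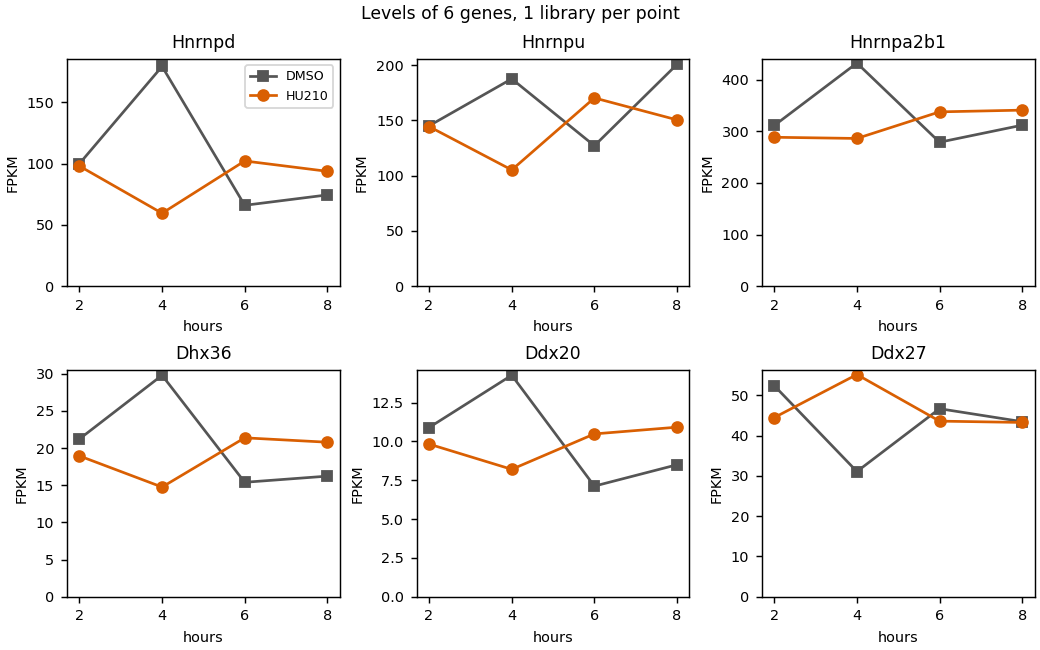
FPKM (vertical axis, from 0) against hours of treatment for 6 genes, with DMSO in grey squares and HU210 in orange circles, 1 library per point. Hnrnpd was 179 FPKM with DMSO and 59.5 FPKM with HU210 at 4 h, and the order of the treatments was the opposite at 6 h. Ddx27 shows the reverse at 4 h.

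In the rest of the A/B and D group, 3 of 6 genes were lower at 4 h, beside 19.9% of all genes. Hnrnpa2b1 held 312, 433, 279 and 312 FPKM in the DMSO libraries in order of time. With HU210 it held 289, 286, 338 and 341 FPKM. The 4 h DMSO library was the highest, the other 7 lay between 279 and 341 FPKM, and the change at 4 h was −0.59, or −0.07 against the other DMSO libraries. Hnrnpab, which binds mRNAs carried into neurites, held 273, 326, 185 and 200.3 FPKM with DMSO. Its HU210 libraries held 214, 214, 250 and 258 FPKM. They lay inside the range of the DMSO libraries, and the change of −0.61 at 4 h became −0.02 against the other 3. Hnrnpdl, a close relative of Hnrnpd, had a change of −0.43, which turned to 0.11 against those libraries. Hnrnpa1 (−0.35) and Hnrnpa0 (−0.13) did not pass 1.3-fold, and Hnrnpa3 had 0.11. Hnrnpa3, whose reads may be shared with its copies, held 52.3, 37.1, 49.4 and 33.8 FPKM with DMSO and 64.3, 40.1, 47.3 and 41.2 FPKM with HU210, highest at 2 h under either treatment.

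Of the 4 genes of the F/H group, whose proteins bind runs of G, Hnrnph2 (−0.52) and Hnrnph3 (−0.48) were lower at 4 h. Hnrnph2 held 50.0, 61.6, 40.2 and 62.8 FPKM with DMSO and 48.6, 42.7, 44.96 and 53.0 FPKM with HU210. Hnrnph3, which shares exon bases with Rufy2, held 26.0, 29.4, 18.8 and 27.5 FPKM with DMSO and 20.7, 20.8, 22.4 and 29.2 FPKM with HU210. In both, the 6 h DMSO library was the lowest of the 8, and against the other 3 DMSO libraries the changes at 4 h were −0.23 and −0.18. Hnrnph1 held 244, 297, 204 and 292 FPKM with DMSO and 236, 262, 217 and 257 FPKM with HU210. Its change at 4 h was −0.18, that of Hnrnpf was 0.16, and neither passed 1.3-fold. The 9 remaining hnRNP genes were all below 0, beside 59% of all genes, and 5 of them passed 1.3-fold (55.6%, beside 19.9%).

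Hnrnpu (SAF-A), which binds chromatin and nuclear RNA, was the most changed of these. The DMSO libraries held 145, 188, 127 and 201 FPKM. The HU210 libraries held 144, 105, 170.4 and 151 FPKM, of which the 4 h value was the lowest of all 8. The change was −0.83, and it was −0.55 against the other 3 DMSO libraries, so Hnrnpu and Hnrnpd were the 2 hnRNP genes lower by both references. The splicing regulators Hnrnpl (−0.63) and Hnrnpll (−0.61) came next. They were followed by Hnrnpk (−0.48), which binds runs of C, and Hnrnpr (−0.43), known for carrying beta-actin mRNA in axons. Hnrnpc (−0.31), which binds runs of U, Hnrnpul2 (−0.31), Hnrnpul1 (−0.05) and Hnrnpm (−0.04) did not pass 1.3-fold.

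At 4 h the share of DDX genes that were higher lay near that of all genes, and the share that were lower lay below it. Of 33, 3 were higher (9.1%) and 3 were lower (9.1%), against 8.96% and 19.9% of all genes tested. Their median was −0.09, and 22 of 33 were below 0 (66.7%, against 59% of all genes). Of the 16 DHX genes, 5 were lower (31.2%) and 0 higher, with a median of −0.16 and 12 of 16 below 0. Whether the families differed was not tested. Against the mean of the other 3 DMSO libraries, 0 of the DDX and DHX genes were lower and 0 higher past 1.3-fold, beside 3.39% and 1.36% of all genes.

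Among the splicing helicases, 4 of 14 were lower at 4 h (28.6%, beside 19.9% of all genes) and 0 were higher (beside 8.96%). Ddx20 (Gemin3), a part of the SMN complex that loads Sm proteins onto snRNAs, held 10.9, 14.3, 7.12 and 8.50 FPKM with DMSO in order of time. With HU210 it held 9.83, 8.20, 10.5 and 10.9 FPKM. The DMSO libraries covered a wider range than the HU210 libraries, and the change at 4 h was −0.73. Dhx15, which takes the spliceosome apart, held 67.6, 81.5, 56.0 and 55.2 FPKM with DMSO and 63.5, 54.6, 69.1 and 62.7 FPKM with HU210. The 2 libraries of 4 h were the highest and the lowest of the 8, and the change was −0.57. Dhx9 (−0.48) and Ddx46 (−0.42), a factor that acts with the U2 snRNP, were lower as well. Dhx9 held 91.4, 119.6, 92.4 and 108 FPKM with DMSO and 88.8, 85.3, 104 and 108 FPKM with HU210.

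Ddx5 (0.18) and Ddx39b (−0.09), the most abundant splicing helicases, did not pass 1.3-fold at 4 h, and neither did Ddx17 (−0.30). The next most abundant, Dhx9 and Dhx15, are among those lower above. Ddx5 held 239, 193, 165 and 181 FPKM with DMSO and 260.2, 219.7, 188 and 194 FPKM with HU210, highest at 2 h under either treatment. Ddx39b held 209, 209.99, 183 and 192 FPKM with DMSO and 205, 197, 184 and 205 FPKM with HU210. Dhx35 held 9.19, 9.15, 9.29 and 9.32 FPKM with DMSO and 11.3, 9.26, 8.94 and 8.64 FPKM with HU210, and the 2 h HU210 library was the highest.

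The helicases of ribosome biogenesis went both ways at 4 h, with 3 higher (18.8%, beside 8.96% of all genes) and 2 lower (12.5%, beside 19.9%) of 16. Ddx27, a nucleolar protein, held 52.4, 31.1, 46.7 and 43.5 FPKM with DMSO and 44.5, 55.2, 43.6 and 43.3 FPKM with HU210. The libraries of 4 h were again the 2 extremes, here with DMSO lowest, and the change was 0.81, or 0.22 against the other 3 DMSO libraries. Ddx49 (0.45), which shares exon bases with Homer3 on the opposite strand, and Ddx54 (0.39) were higher too. Ddx49 held 28.6, 21.6, 26.2 and 27.1 FPKM with DMSO and 33.1, 29.9, 24.3 and 26.5 FPKM with HU210, and Ddx54 held 53.6, 43.4, 49.7 and 49.1 FPKM with DMSO and 52.0, 57.0, 49.2 and 49.5 FPKM with HU210. In both, as in Ddx27, the 4 h DMSO library was the lowest of the 8, and against the other 3 DMSO libraries the changes were 0.13 and 0.17. Dhx33 (−0.61), which promotes rRNA synthesis, and Ddx52 (−0.44) were lower.

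Of the 8 helicases of export, translation and decay, Dhx36 was lower at 4 h (12.5%, beside 19.9% of all genes) and none was higher. Dhx36, which unwinds G-quadruplexes, held 21.2, 29.8, 15.4 and 16.2 FPKM with DMSO and 19.0, 14.8, 21.4 and 20.8 FPKM with HU210. The 2 libraries of 4 h were the extremes of the 8, and the change was −0.97, or −0.23 against the other DMSO libraries. The translation factor Ddx3x (−0.26) and the decapping cofactor Ddx6 (−0.26) stayed under 1.3-fold, as did Dhx34 (0.38), which acts in nonsense-mediated decay. Of the 6 helicases in DNA metabolism or without a settled role, only Dhx40 (−0.58) passed. Neither the 2 mitochondrial, the 2 innate sensing nor the 1 germ line helicase did.

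**Figure D2:**
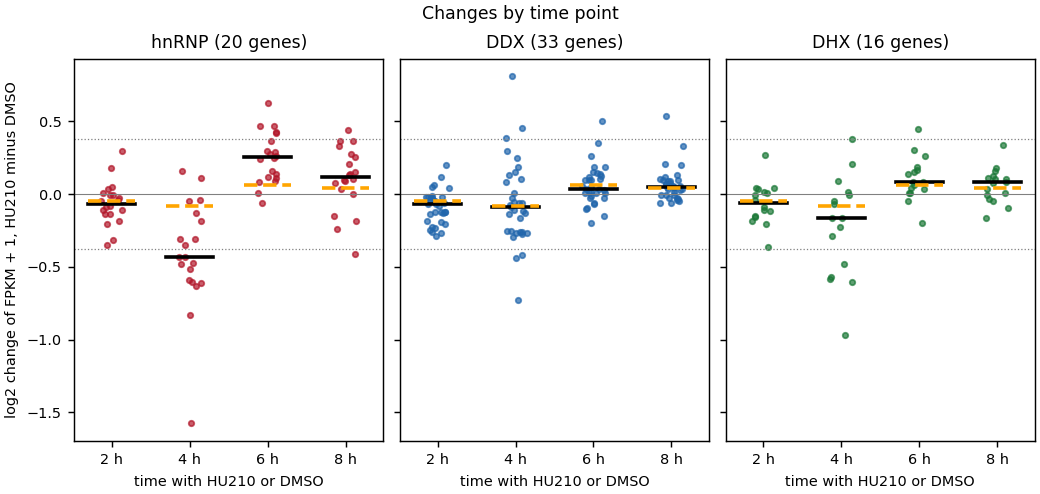
Log2 change of FPKM + 1, HU210 minus DMSO, at each time point for 20 hnRNP, 33 DDX and 16 DHX genes, 1 point per gene. Black lines are the medians of the family, dashed orange lines the medians of all 11311 genes tested, and dotted lines 1.3-fold. The hnRNP median was −0.43 at 4 h and 0.25 at 6 h, while the DDX median stayed within 0.1 of 0 (log2) at every time point.

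Which of the 2 libraries of 4 h departed was counted. Of the 19 members lower at 4 h, the DMSO library was the highest of the 8 in 15, the HU210 library was the lowest in 8, and both held in 7. Among the 2251 genes of the whole table that were lower at 4 h, the DMSO library was the highest in 73.7% and the HU210 library the lowest in 54.9%. The share of these genes in which both held was not counted. Genes picked as lower at 4 h are more likely to show either extreme. Over all 69 members, the 4 h DMSO library was the highest in 33 (47.8%), against 27.3% of all genes tested. The 4 h HU210 library was the lowest in 15 (21.7%), against 20.4%.

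**Figure D3:**
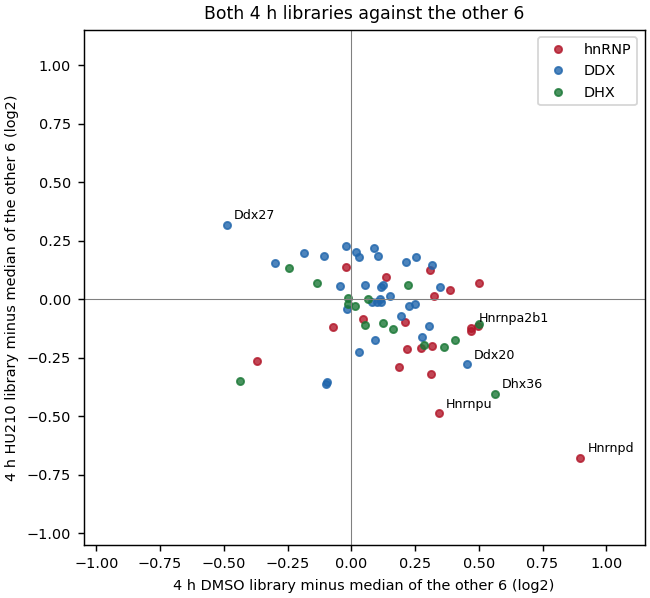
Departure of the 4 h DMSO library (horizontal) and of the 4 h HU210 library (vertical) from the median of the other 6 libraries, in log2(FPKM + 1), for each of the 69 genes. Hnrnpd stands at 0.90 and −0.68 and Ddx27 at −0.49 and 0.32, and most hnRNP genes lie to the right of 0.

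At 6 h, the hnRNP genes stood on the other side. Of the 20, 5 were higher with HU210 and 0 were lower, against 6.38% and 1.72% of all genes tested. The median change was 0.25, against 0.06 over all genes, and 19 of 20 were above 0, as were 7416 of the 11311 genes tested. In each family of helicases 1 gene was higher, and the medians were 0.04 for DDX and 0.08 for DHX genes. All 19 members that were lower at 4 h were above 0 at 6 h, as were 89.2% of all genes lower at 4 h.

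The 7 members higher at 6 h were Hnrnpd (0.62), Ddx20 (0.50), Hnrnpdl (0.47), Hnrnpll (0.47), Dhx36 (0.45), Hnrnpab (0.43) and Hnrnpu (0.42). Each was among the 19 lower at 4 h. The share of all genes higher at 6 h that were also lower at 4 h was not counted, so this overlap cannot be called particular to the members. Hnrnpdl held 127, 122, 62.4 and 73.0 FPKM with DMSO and 120.0, 89.8, 86.8 and 84.5 FPKM with HU210. Its 6 h DMSO library was the lowest of the 8, and the 6 h HU210 library lay below those of 2 h and 4 h. Hnrnpll held 24.5, 31.9, 20.1 and 19.5 FPKM with DMSO and 21.2, 20.6, 28.1 and 26.8 FPKM with HU210. Here the later HU210 libraries were above the earlier ones.

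The 6 h DMSO library was the lowest of the 8 in 25 of the 69 members (36.2%), against 13.3% of all genes tested, and in 9 of the 20 hnRNP genes. Against the mean of the 3 other DMSO libraries, 0 of the 69 members were higher at 6 h, beside 3.13% of all genes, and the median change of the hnRNP genes was −0.06. From the 4 h to the 6 h DMSO library, 13 of 20 hnRNP genes were lower by 1.3-fold (65%), against 16.3% of all genes. From the 4 h to the 6 h HU210 library, 4 of 20 were higher by 1.3-fold (20%), against 13.1%. From 4 h to 6 h, the larger step for the hnRNP genes was thus between DMSO libraries. From the 2 h to the 4 h HU210 library, 5 of 20 were lower by 1.3-fold (25%), against 6% of all genes. Between the DMSO libraries of 2 h and 4 h, 2 were higher (10%, against 8.1%) and 1 was lower (5%, against 6.6%). The median step from 2 h to 4 h was −0.14 with HU210 and 0.22 with DMSO.

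**Figure D4:**
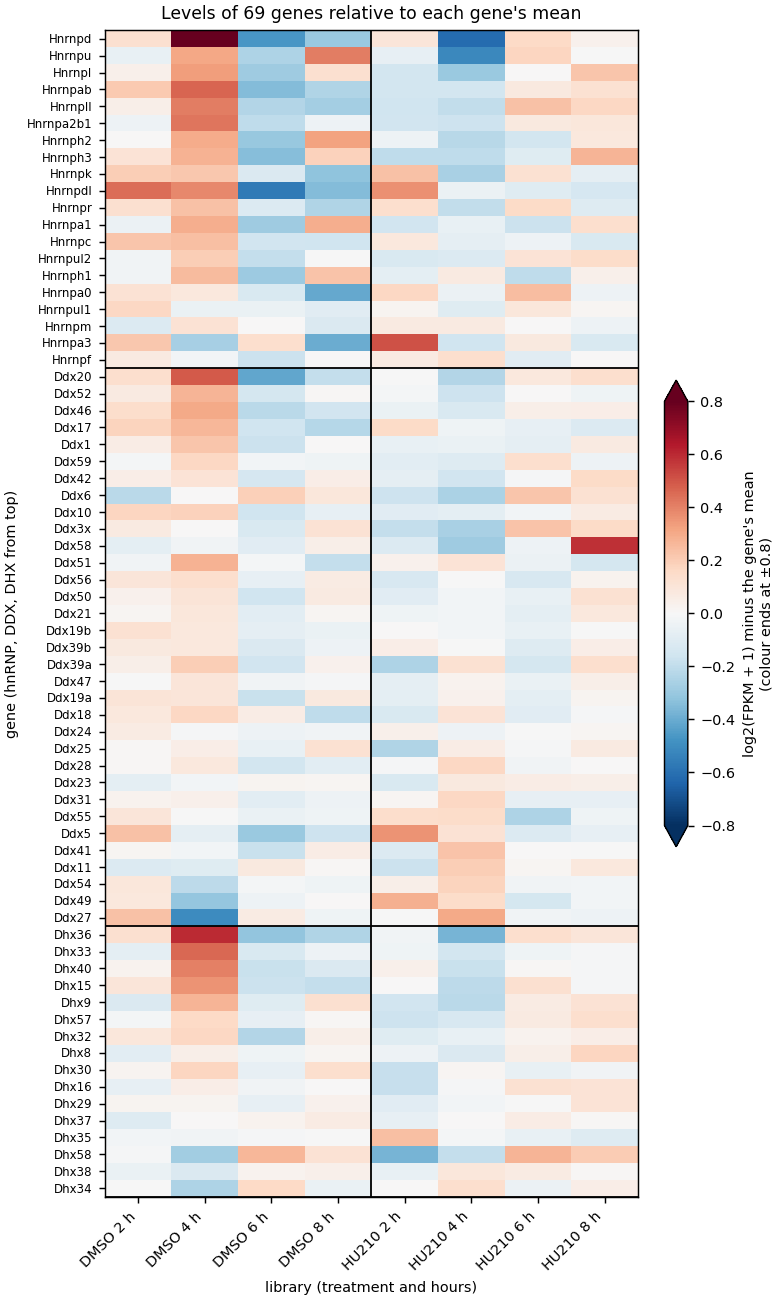
Heat map of the 69 genes (rows; hnRNP, DDX and DHX from top, sorted by the change at 4 h) in the 8 libraries (columns), in log2(FPKM + 1) minus the mean of the gene, with red above and blue below it. In the column of DMSO at 4 h most hnRNP genes are red, and in that of DMSO at 6 h most are blue.

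At 8 h, 2 members were higher (background 4.38%) and 1 was lower (1.44%). Ddx58 (RIG-I) held 2.01, 2.12, 1.98 and 2.29 FPKM with DMSO and 1.95, 1.61, 2.09 and 3.77 FPKM with HU210. The 8 h HU210 library was the highest of the 8, with a change of 0.54, or 0.65 against the other 3 DMSO libraries. Dhx58 (LGP2), its relative, had a change of 0.09 at 8 h. Hnrnpll (0.44) was the second member higher, though by 0.09 against the other DMSO libraries, and Hnrnpa0 (0.37) stayed just under 1.3-fold. Hnrnpa0 held 44.7, 43.7, 37.8 and 30.7 FPKM with DMSO and 46.1, 39.8, 49.0 and 39.9 FPKM with HU210. Hnrnpu was lower (−0.41), with 201 FPKM in the 8 h DMSO library, the highest of the 8, and its change was −0.01 against the other DMSO libraries. Hnrnph2 (−0.24) and Hnrnph1 (−0.19) had the next lowest changes.

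At 2 h, no member passed 1.3-fold in either direction, beside 1.49% of all genes higher and 3.91% lower. The lowest changes were those of Dhx58 (−0.36), Hnrnpab (−0.35) and Hnrnph3 (−0.31), and the highest those of Hnrnpa3 (0.29), Dhx35 (0.27) and Ddx49 (0.20). The family medians lay between −0.06 and −0.07, against −0.05 over all genes. At 6 h the lowest changes of any member, Dhx34 (−0.20), Ddx55 (−0.20) and Ddx18 (−0.15), did not pass 1.3-fold either. Dhx34 held 2.83, 2.23, 3.28 and 2.70 FPKM with DMSO and 2.84, 3.20, 2.72 and 2.99 FPKM with HU210. Ddx55 held 8.39, 7.76, 7.48 and 7.60 FPKM with DMSO and 8.68, 8.71, 6.40 and 7.57 FPKM with HU210. For Ddx18 the DMSO libraries held 30.4, 32.2, 29.9 and 24.7 FPKM and the HU210 libraries 26.2, 31.0, 26.8 and 28.5 FPKM. Of the 3, the 6 h HU210 library was the lowest of the 8 in Ddx55 alone.

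Over the 4 time points, hnRNP levels varied more among the DMSO libraries than among the HU210 libraries. The SD of log2(FPKM + 1) had a median of 0.27 over the 4 DMSO libraries and of 0.15 over the 4 HU210 libraries, and it was smaller with HU210 in 19 of 20 hnRNP genes (95%), against 55.7% of all genes tested. Without the libraries of 4 h the medians were 0.26 and 0.14, and the SD was smaller with HU210 in 17 of 20 (85%), against 51.5%. For the DDX genes the medians were 0.11 and 0.11. In 12 of 20 hnRNP genes all HU210 libraries lay between the lowest and the highest DMSO library, against 24.7% of all genes. These 4 libraries per treatment differ in time, so the SD is not one between replicates, and the difference was not tested.

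A change shared by the 4 time points was tested with limma, with the time point as a factor. Of the 11311 genes, 0 passed an adjusted p of 0.05 (0% of genes), and 148 had an unadjusted p under 0.05 (1.31%), none of them a member. The smallest adjusted p of a member was 1. A second fit compared the 4 libraries of 6 h and 8 h with the 4 of 2 h and 4 h, with the treatment as a factor. In it 0 genes passed (0%), and 815 genes (7.21%) and 7 of the 69 members had an unadjusted p under 0.05.

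Among those 7, Dhx58 had a difference, late minus early, of 0.43 ± 0.09 (log2, SE, adjusted p = 0.518 by limma). Its libraries held 3.23, 2.51, 4.11 and 3.61 FPKM with DMSO and 2.29, 2.73, 4.13 and 3.89 FPKM with HU210, so every library of 6 h and 8 h was above every earlier one. The same held for Ddx6, with 19.8, 23.2, 26.5 and 24.6 FPKM with DMSO and 20.5, 19.2, 27.1 and 25.2 FPKM with HU210, and a difference of 0.31 ± 0.08 (adjusted p = 0.522 by limma). Hnrnpdl had a difference of −0.57 ± 0.15, Ddx5 one of −0.32 ± 0.10 and Ddx17 one of −0.28 ± 0.09. The smaller ones were those of Hnrnpc (−0.24 ± 0.09) and Ddx55 (−0.19 ± 0.08). None of these passed the adjustment.

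Related genes under other symbols were read beside the members. The SR proteins, which bind exons and recruit the spliceosome, had 6 of 12 lower (50%) and 1 higher (8.3%) at 4 h, beside 19.9% and 8.96% of all genes, with a median of −0.45. Srsf1 (−1.13) was lowest, with 170 FPKM in the 4 h DMSO library and 77.0 FPKM in the 4 h HU210 library. Srsf6 (−0.69) and Srsf2 (−0.60) followed it. The 14 hnRNP proteins without the HNRNP symbol had 3 higher, 3 lower (21.4% each) and a median of 0.01, and Pcbp3 (0.49), Ptbp3 (−0.47) and Ptbp2 (−0.46) had the largest changes. Of 18 other helicases, most of them RNA helicases, 3 were lower (16.7%) and 1 higher (5.6%), with a median of −0.21. Ythdc2 (−0.60), Eif4a1 (0.56) and Ascc3 (−0.54) were furthest from 0. Of 12 Sm and U snRNP core proteins, 3 were lower (25%) and 1 higher (8.3%; median 0.11), with Snrpg (−1.04), Snrpe (−0.76) and Snrpf (0.59) furthest. With the other 3 DMSO libraries as reference, none of these 12 named genes passed 1.3-fold at 4 h, and their changes ran from −0.33 (Snrpg) to 0.16 (Pcbp3), with −0.23 in Srsf1.

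The members' changes moved with the GC content of their transcripts. At 4 h, Spearman's rho between the GC content of the longest coding transcript and the change was 0.58 over the 69 members and 0.53 over 10590 genes, and at 6 h it was −0.44 and −0.30. These are correlations across genes in the same 2 libraries, and genes are not independent replicates. Among the 20 hnRNP genes alone, rho was 0.20 at 4 h. The median GC content was 45.9% for hnRNP, 50.0% for DDX and 51.9% for DHX genes, against 50.5% over all genes. After removal of a trend on GC content and transcript length, 5 of the 20 hnRNP genes were lower at 4 h (Hnrnpd, Hnrnpl, Hnrnpu, Hnrnpab and Hnrnpll), beside 13.4% of all genes, and 1 was higher (Hnrnpa3, 0.42), beside 5.25%. At 6 h 5 were higher, beside 4.96%, with Hnrnpa0 (0.41) in place of Hnrnpu (0.36). The part of GC content, or of the 4 h and 6 h DMSO libraries, in the differences between the treatments was not tested.

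**Figure D5:**
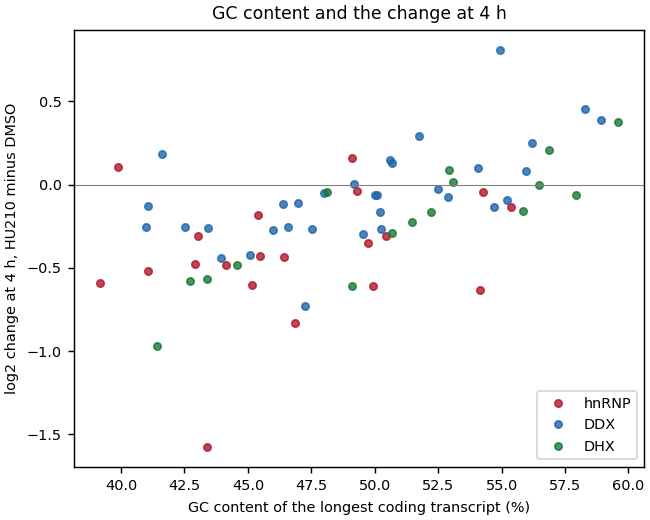
GC content of the longest coding transcript (horizontal, %) and the log2 change at 4 h (vertical), 1 point per gene, for hnRNP, DDX and DHX genes. The points go up from left to right (rho 0.58 over 69 genes), and Hnrnpd, with 43.4% GC, is the lowest.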

How the data were processed

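mRNA of 8 N2A libraries was analysed, with either HU210 or DMSO at 4 time points. Per the labels and the study's methods, reads were aligned to mm9 (Bowtie2 2.1.0, TopHat2 2.0.8, SAMtools 0.1.7). Cufflinks then gave FPKM, scaled to the upper quartile and corrected for fragment bias and for reads with several matches. The version of Cufflinks is not given in the sources used here. The authors deposited FPKM with 1 added, and this 1 was subtracted. Their columns of fold changes, p-values and q-values, and their list of differentially expressed genes, hold the study's own comparisons and were not used.

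Genes were joined over the time points by symbol. Of 16974 genes, 15894 were listed at all 4, and the 11311 with a mean FPKM of at least 1 were tested. Changes were taken on log2(FPKM + 1), which understates those of low genes, with cutoffs of 1.3-fold and, as an alternative, 1.5-fold. limma 3.58.1 in R 4.3.3 was used with trended empirical Bayes and Benjamini-Hochberg adjustment over all genes. On simulated data, each of the 2 fits recovered 200 of 200 genes changed by 1 (log2) among 11311, with 10 false calls. The simulated noise had the same SD in every gene, below the median SD of the real genes, and was independent between libraries. This checks that the fits run correctly and does not measure their power on the real data. GC content, length and sequences came from GENCODE vM1 on mm9, which held 93.6% of the genes tested and all 69 members, and the GC and length trend was removed by loess (degree 1, span 0.3). Other steps used Python 3.11.15 with pandas 2.3.3, numpy 2.4.6, matplotlib 3.10.9 and scipy 1.17.1.

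All members may be named. Values are given in full for the 3 highest and 3 lowest changes per time point, the 3 most abundant genes per family and genes past a limma threshold. Of each list of other genes, the 3 with the largest change at 4 h are named. Ddx6 is given in full too, picked after its values had been seen. The members and lists were chosen with earlier results of these data known. Alternatives were a pseudocount of 0.1, no filter, median centring, the mean of the 4 DMSO libraries as reference, GC and length trend removal, the limma fits without the term for the time point or the treatment or without each time point, and, chosen after seeing the data, the mean of the other 3 libraries of a treatment in place of the DMSO or the HU210 library.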

Additional observations from a re-analysis of the deposited data

Results flagged for a closer look

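The results below were picked out because the change with HU210 passed 1.3-fold in opposite directions at 2 time points. Each value is the difference of the 2 changes on the log2 scale, and with 1 library per condition the difference was not tested. Between 4 h and 6 h, the change of Hnrnpd differed by 2.20, that of Dhx36 by 1.42, that of Hnrnpu by 1.25 and that of Ddx20 by 1.23. For Hnrnpll the difference was 1.07, for Hnrnpab 1.04 and for Hnrnpdl 0.90. Hnrnpll also differed by 1.04 between 4 h and 8 h, and Hnrnpu by 0.83 between 8 h and 6 h. The 4 h DMSO library was the highest of the 8 for Hnrnpd, Dhx36, Ddx20, Hnrnpll and Hnrnpab, and the 6 h DMSO library was the lowest for Ddx20, Hnrnpab and Hnrnpdl. Against the mean of the other 3 DMSO libraries, none of these 7 genes passed 1.3-fold at 6 h.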

How the results depend on the processing

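The precision of each FPKM is unknown, and no difference at a single time point has a replicate check. All 69 members passed the filter on low values, so leaving it out could not change a count of members past 1.3-fold. In the limma fits, leaving it out raised the members with an unadjusted p under 0.05 from 0 to 2 (HU210 against DMSO) and from 7 to 9 (late against early). With a pseudocount of 0.1, 1 member (Dhx58) was lower at 2 h, where 0 were, beside 5.39% of all genes under that setting. With a cutoff of 1.5-fold, 9 members (6 hnRNP) were lower and 1 was higher at 4 h, beside 8.7% and 2.77% of all genes. At 6 h 1 was higher (an hnRNP), beside 1.73%. At 8 h 0 were higher and 0 lower, beside 1.17% and 0.557%. With each pair centred on its median, 3 hnRNP genes were higher at 6 h in place of 5, beside 4.16% of all genes. At 4 h, 15 members (9 hnRNP) were lower in place of 19 (11 hnRNP), and 4 were higher in place of 3. The share of all genes that were higher and lower at 4 h became 13.4% and 14.5%, in place of 8.96% and 19.9%. With the GC and length trend removed, 8 members (5 hnRNP) were lower at 4 h in place of 19 (11 hnRNP), beside 13.4% of all genes in place of 19.9%. With the mean of the 4 DMSO libraries as reference, the higher members numbered 3, 0, 0 and 1 in order of time. The shares of all genes that were higher were 2.61%, 2.07%, 2.71% and 1.85%. The lower members numbered 1 at 2 h (beside 4.36%), 3 (2 hnRNP) at 4 h (beside 5.66%) and 0 at 8 h (beside 1.25%). With the mean of the other 3 DMSO libraries, the higher members numbered 4, 0, 0 and 1, beside 4.27%, 1.36%, 3.13% and 2.33% of all genes. The lower members numbered 1 at 2 h (beside 5.95%), 2 (2 hnRNP) at 4 h (beside 3.39%) and 0 at 8 h (beside 1.67%). With the mean of the other 3 HU210 libraries in place of the HU210 library, the lower members numbered 1, 7 (3 hnRNP), 1 and 3. The shares of all genes that were lower were 2.45%, 7.26%, 2.02% and 3.75%. At 6 h 3 members (1 hnRNP) were higher, beside 1.21%. Against the mean of the other 3 DMSO libraries, the change at 6 h turned to −0.065 in Hnrnpab, −0.11 in Hnrnpd, −0.024 in Dhx36, −0.048 in Hnrnpu, −0.062 in Ddx20 and −0.26 in Hnrnpdl, that of Hnrnpdl at 4 h to 0.11 and that of Snrpg at 8 h to −0.39. Against the mean of the 4, Hnrnpdl turned to −0.078 at 6 h and Snrpg to −0.18 at 8 h. With the other 3 HU210 libraries, Ddx58 turned to −0.19 at 8 h and Eif4a1 to −0.54 at 2 h and 0.15 at 6 h. The limma fits called 0 members in every alternative. Without a time point, the comparison of 6 h and 8 h with 2 h and 4 h called 0 to 1 gene, the 1 (no member) without the 4 h libraries. The cause of these shifts was not tested.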
